A study of Homo sapiens with 6 samples.

Results

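The 6 integrin genes ITGB1, ITGB4, ITGA3, ITGA6, ITGAV and ITGA2 were followed through a map of RNA contacts of QKI-5 in BEAS2B cells, an immortalised line of human bronchial epithelial cells. QKI-5 is the nuclear form of Quaking, an RNA-binding protein of the STAR family. In iCLIP, ultraviolet light links protein to RNA in living cells, the protein is pulled down, and the cDNA stops at the linked nucleotide. The files hold 3 QKI-5 iCLIP libraries, made with an antibody that the labels describe as self-made, and 3 control libraries made with no antibody. For both groups the labels name plain culture in serum-containing medium, ultraviolet irradiation and RNase A at a high or a low dilution, without saying which library had which. They name no mutant, transfected or drug-treated cells.

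The genes and intervals were chosen with earlier results of these data known. The members were taken as every crosslink position on the gene's own strand inside 6 fixed hg19 intervals, a rule that uses no measured value. This gave 5203 listed positions of 8284652 in all 6 libraries, carrying 7024 of 12525618 crosslink events. The QKI-5 libraries gave 5077 of these positions with 6874 events, and the controls gave 126 positions with 150 events. By library, the 6 loci held 3999, 1294 and 1581 events in QKI-5 replicates 1, 2 and 3, and 106, 29 and 15 events in control replicates 1, 2 and 3. The whole libraries held 7283982, 2143279 and 2889146 events with the antibody and 137926, 41475 and 29810 without it. Values below are EPM, events per 1000000 events of the library, and for comparison between genes EPM per kb of locus. A single event is worth 7.25, 24.1 and 33.5 EPM in the controls, against at most 0.467 EPM in a QKI-5 library, so control values move in coarse steps. A count of 0 is read against a floor of 3 events in that library. Nothing in the labels says that replicates were separate cultures, so the spread between them may be technical.

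Integrins are receptors made of an alpha and a beta chain that anchor cells to the extracellular matrix and signal across the membrane. In airway epithelium the beta-1 chain pairs with many alpha chains, among them alpha-2 for collagen and alpha-3 for laminin, while alpha-6 pairs with beta-4 in the hemidesmosomes of basal cells. The alpha-V chain binds matrix proteins with an RGD motif and takes part in the activation of latent TGF-beta. Several integrin genes, ITGA3, ITGA6, ITGB1 and ITGB4 among them, are alternatively spliced in the part that encodes the cytoplasmic tail. Gene boundaries came only from the fixed intervals, and no exon, intron or UTR was assigned, because no hg19 genome or annotation was used. Epithelial markers, other integrin genes and the QKI recognition element were not analysed here for the same reason, and no sequence is shown.

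The first question was how strongly each integrin RNA was crosslinked, and whether its share of events differed with the antibody. All 6 loci carried sense-strand events in each QKI-5 library, at densities that spanned a wide range from ITGB1 down to ITGA2. In none of them did the QKI-5 libraries stand clear of the controls. The genes therefore differed in crosslink density among themselves, while no difference between QKI-5 and control passed the test.

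Among the beta chains, ITGB1, the common partner of most epithelial alpha chains, lies at chr10:33189246-33247293 on the minus strand. ITGB1 density was 4.13, 4.83 and 3.92 EPM per kb in QKI-5 replicates 1, 2 and 3, against 5.37, 6.65 and 3.47 EPM per kb in control replicates 1, 2 and 3. The groups overlapped, since the lowest control lay below every QKI-5 library and the other controls above them. The means were 4.30 ± 0.475 EPM per kb with the antibody and 5.16 ± 1.60 EPM per kb without it (SD, n = 3 each), from 3007 QKI-5 and 65 control events. ITGB4, the hemidesmosomal beta chain, lies at chr17:73717516-73753899 on the plus strand. It held 0.592, 0.731 and 0.733 EPM per kb in QKI-5 libraries and 1.79, 1.99 and 0 EPM per kb in controls. The pattern was split: 2 controls were above all QKI-5 libraries, and the control at 0 had a floor of 2.77 EPM per kb, so its value does not tell a low level from a high one. The ITGB4 counts were 291 QKI-5 and 12 control events, and the means were 0.685 ± 0.0804 and 1.26 ± 1.10 EPM per kb (SD, n = 3 each).

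Of the laminin-binding alpha chains, ITGA3 at chr17:48133340-48167849 on the plus strand was the second densest locus. It held 2.38, 3.38 and 2.59 EPM per kb in QKI-5 libraries and 2.52, 3.49 and 3.89 EPM per kb in controls, from 1106 and 21 events. Both groups covered nearly the same interval. ITGA6, the partner of ITGB4, lies at chr2:173292314-173371181 on the plus strand and held 0.526, 0.515 and 0.750 EPM per kb in QKI-5 libraries, against 0.460, 0.611 and 0.851 EPM per kb in controls. Those control values rest on 5, 2 and 2 events, so the apparent match of the groups is loose. The means of ITGA3 were 2.78 ± 0.528 and 3.30 ± 0.704 EPM per kb, and those of ITGA6 were 0.597 ± 0.133 and 0.641 ± 0.197 EPM per kb, QKI-5 before control (SD, n = 3 each).

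ITGAV, the RGD-binding alpha chain, lies at chr2:187454790-187545629 on the plus strand. It held 1.61, 1.43 and 1.35 EPM per kb in QKI-5 libraries and 2.55, 0.796 and 1.11 EPM per kb in controls, from 1700 and 38 events. Here control replicate 1, with 32 of the 38 control events, lay above all QKI-5 libraries and the other 2 controls lay below them. The collagen-binding chain ITGA2, at chr5:52285156-52390609 on the plus strand, is the longest locus at 105.454 kb and held the fewest events. It held 0.165, 0.0929 and 0.203 EPM per kb in QKI-5 libraries and 0.344, 0 and 0 EPM per kb in controls, where 5 events in control replicate 1 are all there is. The floors of the controls at 0 were 0.686 and 0.954 EPM per kb, above every QKI-5 value, so a difference of this size was not detectable at this depth. The means were 1.46 ± 0.134 and 1.49 ± 0.938 EPM per kb for ITGAV, and 0.154 ± 0.0562 and 0.115 ± 0.198 EPM per kb for ITGA2, QKI-5 before control (SD, n = 3 each).

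**Figure D1:**
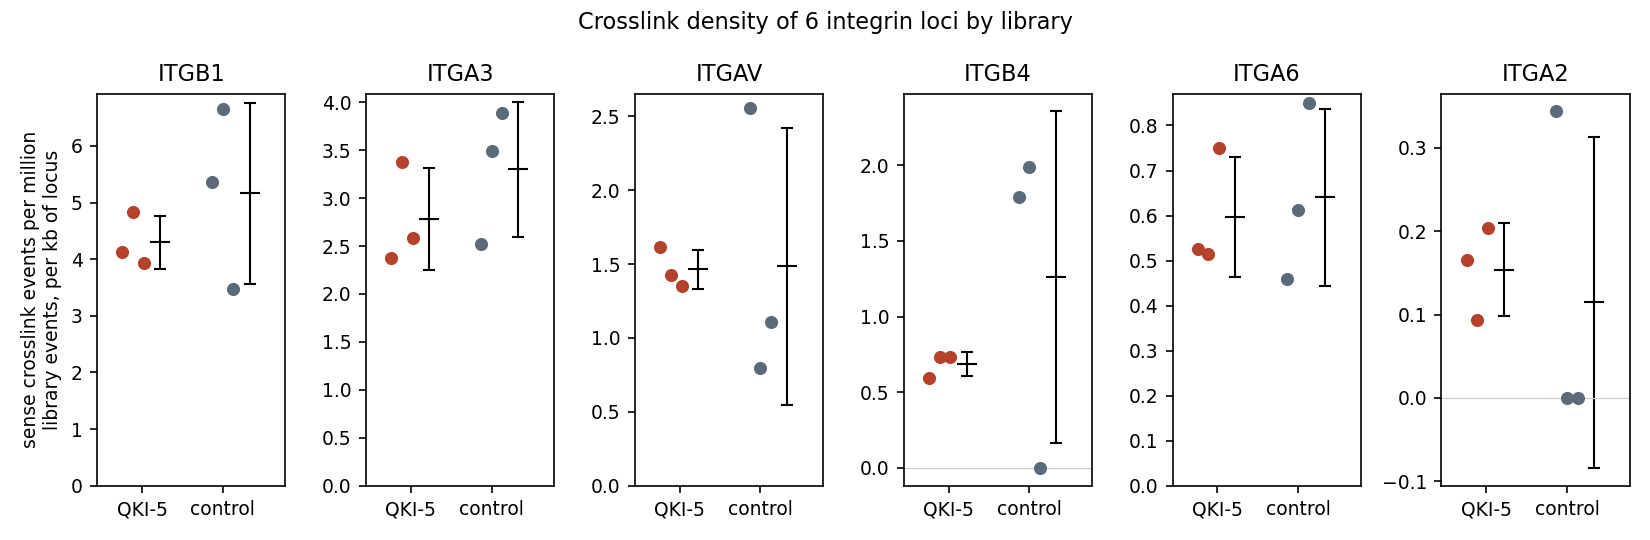
Sense-strand crosslink density of each locus (EPM per kb of locus, linear axes with a scale of their own per panel) in the 3 QKI-5 iCLIP libraries (red) and the 3 controls (grey), replicates 1 to 3 from left to right, with mean ± SD beside them. The groups overlap in all 6 panels, and the 3 QKI-5 points of ITGB1 lie between 3.92 and 4.83 EPM per kb.

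In QKI-5 libraries the order of the densities was ITGB1, ITGA3, ITGAV, ITGB4, ITGA6 and ITGA2. ITGB1 was 1.54 times as dense as ITGA3, which was 1.90 times as dense as ITGAV, and ITGAV was 2.14 times as dense as ITGB4. The QKI-5 ranges of these neighbours did not overlap. ITGB4 and ITGA6 differed by a factor of 1.15 with overlapping ranges, so their order is not separated from the spread between libraries. ITGA6 was 3.88 times as dense as ITGA2, without overlap. The means of the controls ranked the genes in the same order, at 5.16, 3.30, 1.49, 1.26, 0.641 and 0.115 EPM per kb. They rest on 65 events for ITGB1 down to 5 for ITGA2. The order is thus not particular to the libraries made with the antibody. Within a gene the 3 QKI-5 libraries differed least for ITGAV, with a coefficient of variation of 9.13%, and most for ITGA2, at 36.5%, the locus with the fewest events. Among 174009 strand-specific 10 kb windows of the genome with any QKI-5 event, whose median was 0.0806 EPM per kb, the mean density of ITGB1 stood at the 98.6th percentile, that of ITGA3 at the 96.5th and that of ITGAV at the 89.8th. ITGB4 stood at 77.4, ITGA6 at 75.1 and ITGA2 at 56.8 on the same percentile scale. Density depends on how much of the RNA the cell holds as well as on binding, and the crosslink counts do not separate these.

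The antibody comparison was tested with the loci as 6 rows in a table of all 10 kb windows of the genome, 29948 rows after the filter on low counts. By the quasi-likelihood test of edgeR at an adjusted p under 0.05, 0 of the 6 loci were called higher and 0 were called lower. Over all rows, 0.711% were called higher and 0.107% lower, so 0 of 6 is close to this background. No locus had an unadjusted p under 0.05 by edgeR either, where 5514 of all 29948 rows did. The DESeq2 Wald test also called 0 loci, where 407 rows were called higher and 150 lower. It gave 0 loci an unadjusted p under 0.05, where 4896 of all rows had one. Log2 fold changes, QKI-5 over control, were 0.34 (SE 0.48) for ITGB1, -0.63 (SE 0.61) for ITGB4, 0.52 (SE 0.53) for ITGA3, 0.69 (SE 0.64) for ITGA6, 0.23 (SE 0.48) for ITGAV and 0.05 (SE 0.82) for ITGA2. Each SE was derived from the F statistic of edgeR, as the absolute log2 fold change divided by the square root of F. Each SE is close to or larger than its fold change, which restates that F was near or below 1. The adjusted p by edgeR ranged from 0.597 to 0.984. The median log2 fold change of the 6 was 0.28, against 0.78 over all rows tested, and all 6 lay below that median. The other rows are 10 kb windows, shorter than any of the loci, so that median is not a like-for-like reference. In the fits without control replicate 1 or without control replicate 3, 5 of the 6 lay below the median.

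The sign of 4 of these fold changes turned with the scaling. With library totals in place of TMM factors, those of ITGB1, ITGA3, ITGAV and ITGA2 were below 0, while ITGB4 stayed below 0 at -1.14 and ITGA6 above 0 at 0.16. The median over all rows was then 0.27. All 6 again lay below the median of all rows. Ratios of pooled events per library total, QKI-5 over control, were 0.786 for ITGB1 (95% exact interval 0.615 to 1.02), 0.895 for ITGA3 (0.582 to 1.45), 0.760 for ITGAV (0.551 to 1.078), 1.06 for ITGA6 (0.553 to 2.32) and 0.713 for ITGA2 (0.301 to 2.22). Only the interval of ITGB4 lay below 1, with a ratio of 0.412 (0.232 to 0.806), but it covers counting error alone, and control replicate 3 held 0 events of that gene. These pooled values weigh control replicate 1 most, which supplied 9 of the 12 ITGB4 control events. Without that library the ITGB4 log2 fold change was 0.75 and that of ITGAV was 2.18, the nearest to a call with an adjusted p of 0.0527 by edgeR, in a fit whose median over all rows was 6.69.

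**Figure D2:**
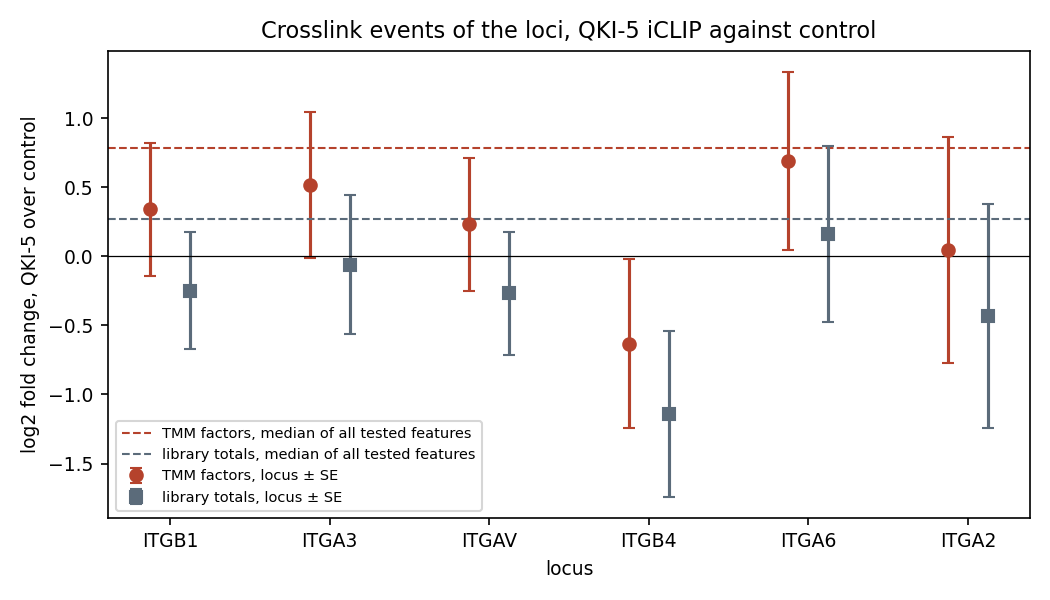
Log2 fold change of events, QKI-5 iCLIP over control, for each locus under TMM factors (red circles) and library totals (grey squares). Bars are ± 1 SE, derived from the F statistic of edgeR. Dashed lines give the median of all rows tested, 0.78 and 0.27, and each point lies below the line of its own scaling.

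Cut into genomic 10 kb windows, the loci touched 47 windows, of which 19 passed the filter on low counts. They were 7 in ITGB1, 6 in ITGAV, 4 in ITGA3, 1 each in ITGA6 and ITGB4 and none in ITGA2. Entry depended on counts relative to library size, so 1 or 2 control events could decide it. In ITGAV the window from 187460001, with 67, 24 and 11 QKI-5 and 2 control events, passed. That from 187470001, with 114, 33 and 15 QKI-5 and 1 control event, did not. The tested windows are thus partly selected for control signal, which limits what their fold changes show. With no filter, 0 of the 47 were called, where 159 of 174732 windows were called higher and 6 lower. Of the 19, 0 were called higher and 0 lower by edgeR, where 0.771% and 0.107% of all 29960 windows were. By the same test 0 of the 19 had an unadjusted p under 0.05, where 5539 of all windows did. The DESeq2 Wald test also called 0, where 431 of all windows were called higher and 150 lower. It gave 1 of the 19 an unadjusted p under 0.05, where 4905 of all windows had one. Log2 fold changes of the 19 ran from -0.84 in ITGAV to 1.19 in a window with only 755 of its bases inside ITGB1, with a median of 0.32 and adjusted p from 0.442 to 0.933. The window of ITGB1 with the most QKI-5 signal, 33210001 to 33220000, held 444, 170 and 140 events in QKI-5 libraries and 9, 3 and 0 in controls, and the log2 fold change there was 0.73 (SE 0.59, adjusted p = 0.533 by edgeR). Without control replicate 1, the window 33190001 to 33200000 of ITGB1 was called higher (log2 fold change 9.83, adjusted p = 0.0369 by edgeR). In that fit 1 of 29 windows of the loci was called higher, where 1.59% of all 52140 windows were. The 2 remaining controls held no event in the called window, so that fold change depends on the prior count of the fit and is no bound. It was the only call in the 6 loci under the settings tried, whose adjusted p for this window was 0.442 with all 6 libraries.

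The strongest windows of the other loci gave the same picture of overlapping groups. ITGA3 from 48140001 to 48150000 averaged 29.5 ± 4.33 EPM with the antibody and 27.2 ± 35.3 EPM without it (SD, n = 3 each; log2 fold change 1.17, adjusted p = 0.462 by edgeR). ITGAV from 187490001 to 187500000 held 32.4 ± 4.56 and 39.3 ± 34.99 EPM, ITGB4 from 73730001 to 73740000 held 9.73 ± 0.571 and 17.7 ± 15.5 EPM, and ITGA6 from 173360001 to 173370000 held 8.83 ± 0.777 and 22.4 ± 38.7 EPM, QKI-5 before control. In each of these the SD of the controls exceeded the difference between the means. The strongest ITGA2 window, from 52290001, held 2.72 ± 1.54 EPM in QKI-5 libraries, and its 3 control events all came from control replicate 1.

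The second question was where along each gene the events lay. Pooled over the QKI-5 libraries, events were spread along each locus rather than confined to a few sites, most sparsely in ITGA2. Cut into 1 kb bins from the 5′ end, 91 of 91 bins of ITGAV, 35 of 35 of ITGA3 and 58 of 59 of ITGB1 held a QKI-5 event. So did 36 of 37 bins of ITGB4, 70 of 79 of ITGA6 and 71 of 106 of ITGA2. Bins with events in all 3 QKI-5 libraries were fewer, 55 in ITGAV, 30 in ITGA3 and 51 in ITGB1. There were 15 such bins in ITGB4, 21 in ITGA6 and 4 in ITGA2. The 10% of the bins with the most pooled QKI-5 events held between 25.9% (ITGA3) and 38.0% (ITGA6) of the QKI-5 events of a locus. Single bins below are ranked by the average EPM with the antibody. Outside the loci the signal dropped at once on the 5′ side, where the 10 kb before each gene held 0 to 3 QKI-5 events on the same strand.

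**Figure D3:**
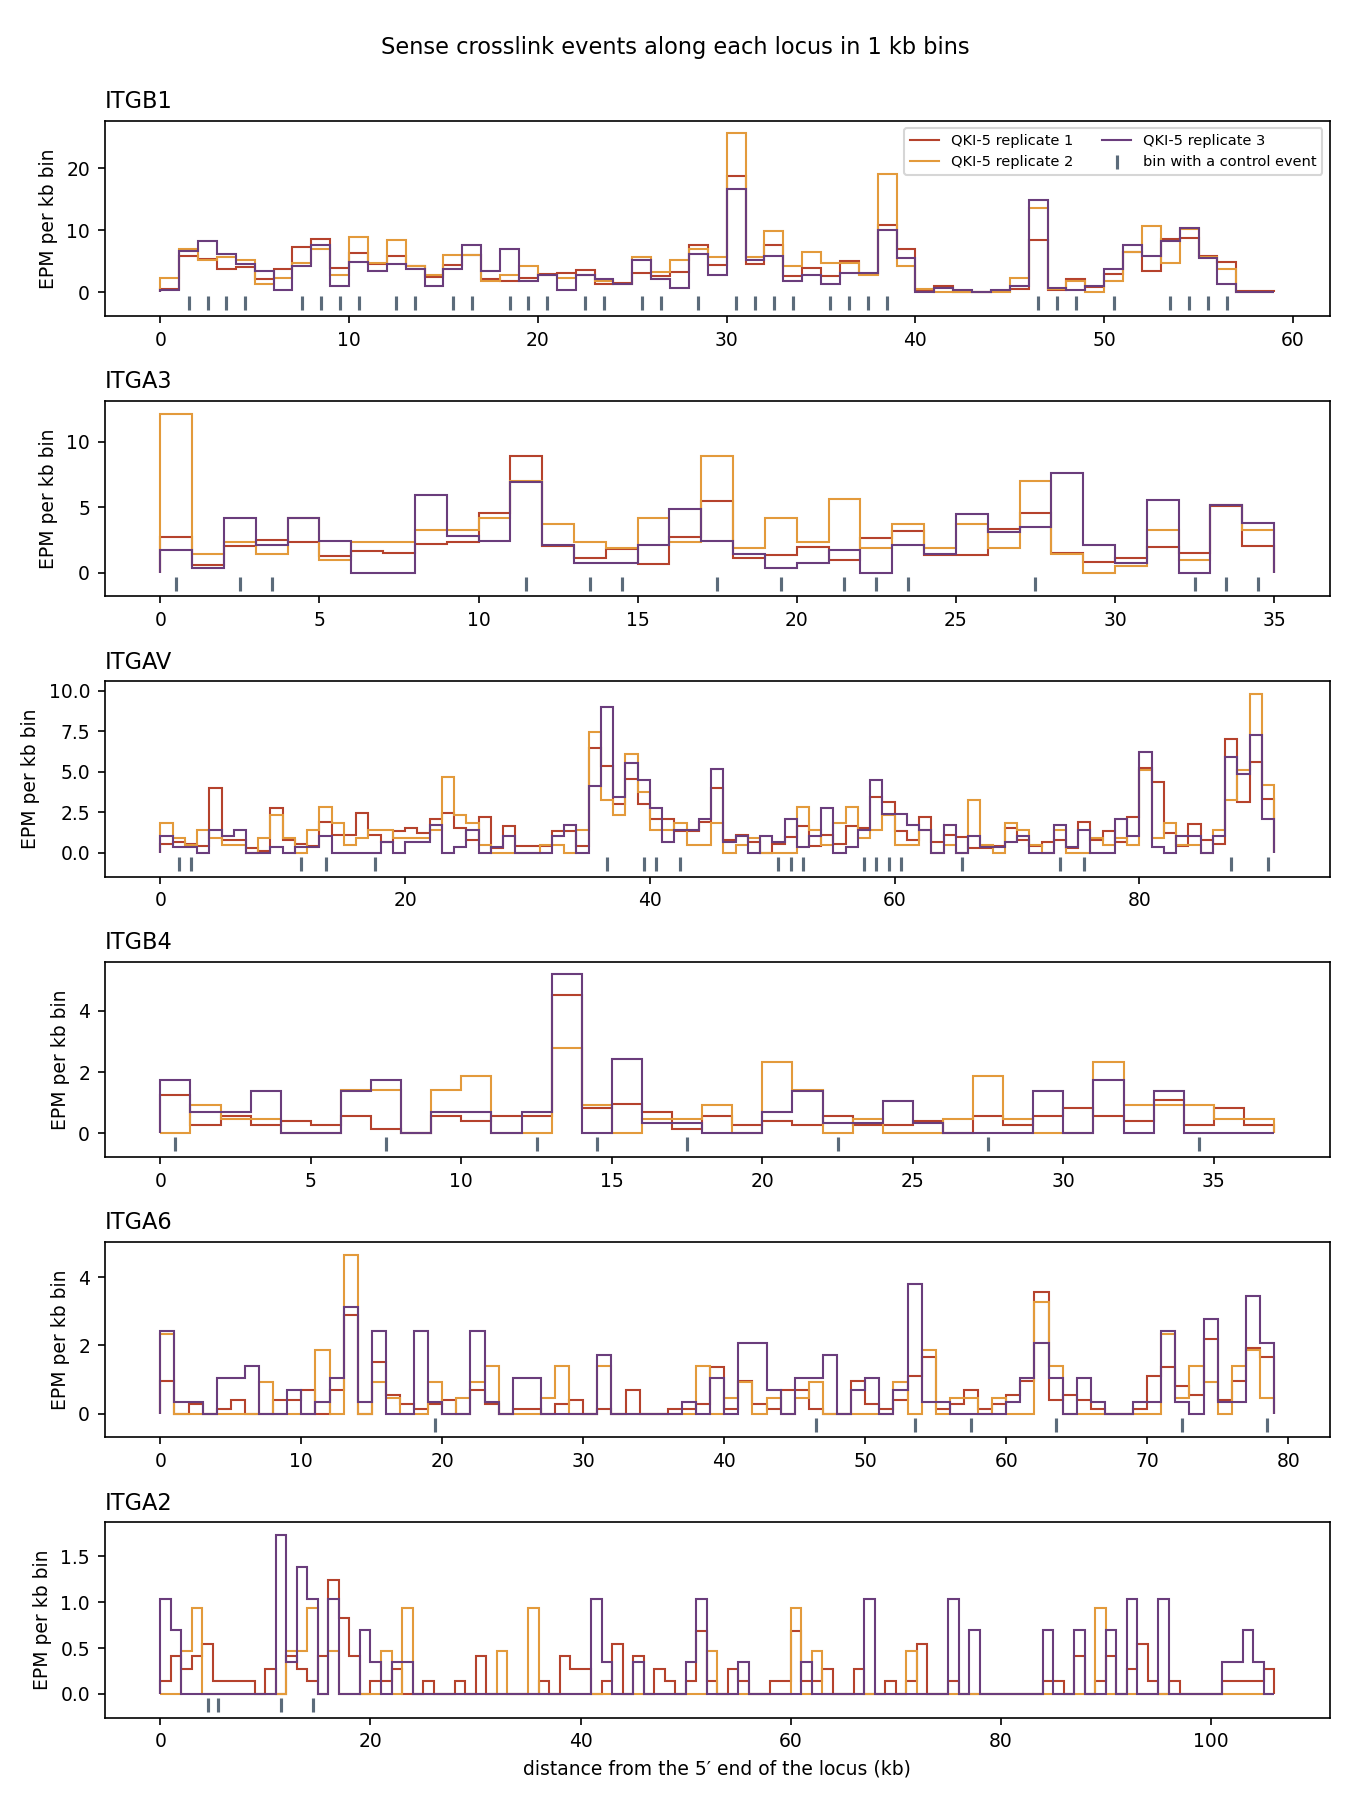
QKI-5 events along each locus, as EPM in 1 kb bins against distance from the 5′ end in kb, with a line for each QKI-5 library and a grey tick under each bin that held any control event. The bin of ITGB1 from 30 to 31 kb is the highest in each of the 3 lines, and its 6 kb from 40 to 46 kb are nearly empty.

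Of the 6 profiles that of ITGB1, the locus with the most events, was the most alike between QKI-5 libraries. Its highest bin, 30 to 31 kb from the 5′ end, reached 18.8, 25.7 and 16.6 EPM in the QKI-5 libraries, which is 4.82 times the mean bin of that locus. The bins from 38 to 39 kb and 46 to 47 kb followed, with 10.8, 19.1 and 10.0 EPM and with 8.37, 13.5 and 14.9 EPM. All 3 bins lay well above the mean bin in every QKI-5 library, and they held 3, 8 and 1 control events. Between these peaks lay a stretch, picked from the profile, from 40 to 46 kb, with 28 QKI-5 events and 0 control events. It took 10.3% of the length and 0.858, 0.998 and 1.06% of the events of QKI-5 replicates 1, 2 and 3. The last 1.5 kb of the locus were also sparse, with 10, 1 and 2 QKI-5 events, a mean density 0.131 times that of the whole locus. RefSeq (GRCh38.p14) lists a pseudogene of ITGB1, ITGB1P1, on another chromosome, and the sources used here do not give how multiply aligning reads were handled, so the part of such reads in these low stretches was not tested. Across the 59 bins Pearson's r between QKI-5 libraries was 0.888, 0.857 and 0.837, a description in which bins are not independent replicates.

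ITGAV was uneven in another way. Its highest bin lay close to the 3′ end, 89 to 90 kb from the start, with 5.63, 9.80 and 7.27 EPM in QKI-5 libraries and no control event. The last 1.5 kb held 5.31, 8.09 and 5.08 EPM per kb, 4.20 times the density of the whole gene, and 3 control events, all in control replicate 2. A block from 35 to 40 kb, picked from the profile, took 5.50% of the length and 15.3, 17.6 and 21.7% of the events of QKI-5 replicates 1, 2 and 3. It held 4 of the 38 control events. Correlations over the 91 bins were 0.703, 0.775 and 0.636.

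In ITGA3 the last 1.5 kb held 4.76, 5.60 and 5.999 EPM per kb in QKI-5 libraries, 1.96 times the density of the locus. They held 9.67, 16.1 and 0 EPM per kb in controls, from 2, 1 and 0 events. The highest ITGA3 bin, 11 to 12 kb from the start, held 8.92, 6.999 and 6.92 EPM, but correlations over the 35 bins were lower than in ITGB1, at 0.558, 0.452 and 0.209. The first kb accounted for one clear disagreement: it held 26 events in QKI-5 replicate 2, or 10.4% of that library's ITGA3 events, but 20 events (3.34%) in replicate 1 and 5 events (1.94%) in replicate 3.

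ITGA6 carried its largest share of events in the last 10% of the locus, 23.8, 21.8 and 19.9% in QKI-5 replicates 1, 2 and 3. The last 1.5 kb were 2.81 times as dense as the whole locus. The second 10% from the 5′ end followed with 15.6, 18.4 and 12.9%, and held the highest bin, at 13 to 14 kb, with 2.88, 4.67 and 3.12 EPM. Of its 9 control events 3 lay in the last 10%, too few to compare with the QKI-5 share. In ITGB4 a single bin, 13 to 14 kb from the start, stood out with 4.53, 2.80 and 5.19 EPM, 6.19 times the mean bin, and took 21.0, 10.5 and 19.5% of that gene's events in QKI-5 replicates 1, 2 and 3. No control event fell in that bin, although 12 lay elsewhere in ITGB4, and with so few the absence cannot be separated from counting. ITGA2 had its largest share of events in the second 10% of its length, 22.0, 23.8 and 30.6% in QKI-5 replicates 1, 2 and 3. Its total of 210 events left a run of bins empty, 6 kb in a row from 78 to 84 kb, and bin profiles of different libraries barely correlated, at 0.175, 0.162 and 0.0617.

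Narrow sites were examined as stretches of 51 nt, the 3 with the most events per gene in QKI-5 replicate 1, and then measured in the other libraries. In ITGB1 the first stretch, chr10:33216719-33216769, held 38 events in replicate 1, and 20 and 18 in replicates 2 and 3 that had no part in its choice. The next, chr10:33216387-33216437, lies in the same 1 kb bin and held 33, 11 and 8. The other, chr10:33239433-33239483, held 31 events in replicate 1 but only 2 and 4 in the others, so not every stretch carried over. Together the 3 held 5.84% of ITGB1 events in replicate 1, and 5.49 and 4.56% in replicates 2 and 3, in 0.264% of the length. With stretches ranked by distinct positions instead of events, the mean of replicates 2 and 3 was 2.39% in place of 5.03%, and 1 control event fell in them. In the stretches ranked by events no control event fell, of 65, and the exact interval for the control share, 0 to 5.52%, includes the QKI-5 value of replicates 2 and 3.

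In the other genes the leading stretch rested on fewer events. That of ITGA3, chr17:48145061-48145111, held 25, 5 and 3 events in QKI-5 replicates 1, 2 and 3, and its second, chr17:48150434-48150484, held 23, 11 and 2. That of ITGB4, chr17:73731013-73731063, within the bin described above, held 18, 2 and 6. ITGAV had its leading stretch at chr2:187535763-187535813 with 18, 3 and 0 events, while its second, chr2:187490419-187490469, held 17, 11 and 5. The leading stretch of ITGA6, chr2:173355181-173355231, held 11, 3 and 0 events, and that of ITGA2, chr5:52301465-52301515, held 6, 0 and 3. Replicates 2 and 3 thus both held events in the stretches of ITGB1 near the middle of the locus. Both also did, with fewer events, in the leading stretches of ITGA3 and ITGB4 and in the second of ITGA3 and ITGAV. Among the stretches of rank 3 by events in replicate 1, both did in ITGB1 (2 and 4 events), ITGAV (5 and 3) and ITGA6 (1 and 3). Only 1 of the pair did in the leading stretches of ITGA6, ITGA2 and ITGAV, in rank 2 of ITGA6 and in rank 3 of ITGA3. Neither did in ranks 2 and 3 of ITGB4 and ITGA2, which held 3 or 4 events each in replicate 1. In replicates 2 and 3, the 3 stretches together held 3.75 ± 2.82% of ITGA6 events, 4.57 ± 3.72% of ITGA3 events, 5.65 ± 3.03% of ITGB4 events, 2.42 ± 3.42% of ITGA2 events and 4.54 ± 3.24% of ITGAV events (SD, n = 2). No control event lay in any of the 18 stretches.

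At the level of single nucleotides, most positions were found in only 1 QKI-5 library. Of 1987 distinct ITGB1 positions in QKI-5 libraries, 137 (6.89%) were found in at least 2 libraries and 9 in all 3. For ITGA3 the share in at least 2 libraries was 5.53% of 777, for ITGAV 3.30% of 1273, for ITGB4 2.86% of 210, for ITGA2 1.83% of 164 and for ITGA6 1.45% of 414. Because replicate 1 is the deepest, its own positions dominate these totals. Of the ITGB1 positions of replicates 2 and 3, 16.8 and 16.0% were also listed in replicate 1, which covered 2.31% of the bases of the locus. For ITGA3 these shares were 10.4 and 12.05%, where replicate 1 covered 1.40% of the bases. The largest count at one base was 11, in ITGB1 in QKI-5 replicate 1. Repeated events at one base were more frequent in replicates 2 and 3: in ITGB1 21.1% of positions in replicate 1 held more than 1 event, against 38.9 and 40.5% in replicates 2 and 3. The sources used here do not say whether the authors merged copies of one cDNA, and their part in these counts was not tested.

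The opposite strand of each interval served as a background measured in the same way. For ITGB1 it held 3 QKI-5 events beside 3007 on the gene's strand (0.0997%, exact 95% interval 0.0206 to 0.291), for ITGAV 2 beside 1700 (0.118%), for ITGA3 14 beside 1106 (1.25%) and for ITGB4 5 beside 291 (1.69%). ITGA2 had 22 beside 210 (9.48%). The events of the first 4 loci were therefore almost wholly on the strand of the gene. ITGA6 had the highest share, with 194 opposite-strand QKI-5 events beside 560, or 25.7% (22.6 to 29.0). The share was 30.1, 24.3 and 17.4% in QKI-5 replicates 1, 2 and 3. In the controls together it was 2 of 11 events, 18.2% (exact 95% interval 2.28 to 51.8), which includes all 3 QKI-5 shares.

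The opposite-strand events of ITGA6 lay almost wholly in its 3′ part. The first 35 kb of the locus held 3 of them over the QKI-5 libraries, beside 201 on the ITGA6 strand. From 35 to 75 kb there were 142, beside 297. Beyond the 3′ end, from 80 to 120 kb, the opposite strand held 134, 55 and 25 events in QKI-5 replicates 1, 2 and 3 while the ITGA6 strand held 1, 0 and 1. Controls held 2 opposite-strand events there. Signal on the ITGA6 strand thus fell off at the 3′ boundary, and the opposite strand carried on through it. From 125 to 130 kb, events on the ITGA6 strand appeared again, 12 in the QKI-5 libraries. In RefSeq (GRCh38.p14), 2 long noncoding genes, ITGA6-AS1 and PDK1-AS1, overlap ITGA6, with PDK1-AS1 reaching on to PDK1, and PDK1, a kinase gene of pyruvate metabolism, is its neighbour. That table names neighbours only, and no event was assigned to these genes.

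**Figure D4:**
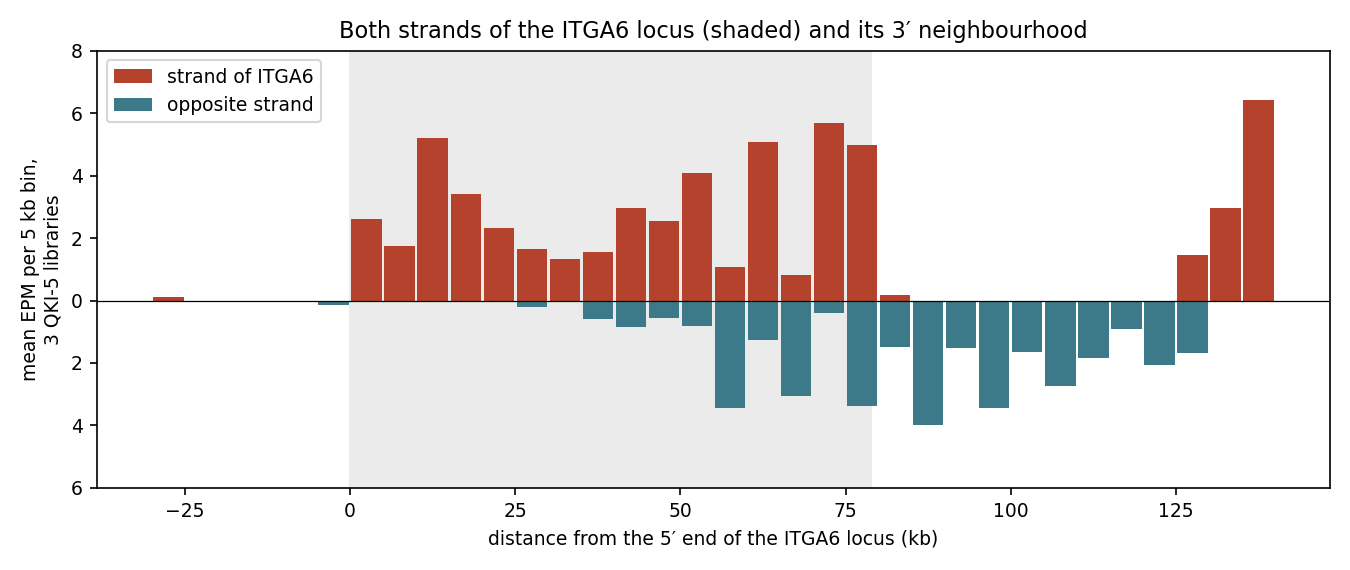
Mean EPM of the 3 QKI-5 libraries in 5 kb bins against distance from the 5′ end of ITGA6 in kb, with the ITGA6 strand upward and the opposite strand downward, and the locus shaded. The opposite strand is almost empty over the first 35 kb and continues past the 3′ end, where the ITGA6 strand has 2 events from 80 to 120 kb.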

How the data were processed

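The authors deposited, for each library, raw counts of crosslink events per nucleotide and strand, not normalized. Cutadapt, Bowtie and the build hg19 are named, per the submitters' processing notes, with versions not given in the sources used here. Coordinates are hg19, counted from 1.

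Events were summed over the 6 intervals, and over strand-specific 10 kb windows elsewhere. Counts were tested with edgeR 4.0.16 (R 4.3.3, limma 3.58.1; quasi-likelihood F test, TMM, filterByExpr, group as the only term, Benjamini-Hochberg adjustment over all rows, threshold 0.05). DESeq2 1.42.0 was an alternative. The edgeR step was also run on simulated counts with large set changes, which does not measure its power for small differences against sparse controls. Python 3.11.15 with pandas 2.3.3, scipy 1.17.1 and matplotlib 3.10.9 made the other values. Binomial intervals (95%, Clopper-Pearson) and floors of 3 events cover counting error only, since amplification copies are not independent molecules.

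The genes, intervals, windows and tests were chosen with earlier results of these data known. Named items are all 6 loci, the window with the most QKI-5 signal and every called window of each, and the 3 non-overlapping 51 nt stretches with the most events in QKI-5 replicate 1. The highest bins, regions and locus ends were chosen after their values were seen. Tests planned on other genes, cell markers and motifs need hg19 annotation or sequence and were not run. In their deviations from the group mean, same-numbered libraries of the groups correlated at 0.000939, 0.105 and 0.0718 over 29960 windows. Between unlike numbers the values ran from -0.1011 to 0.0551. With so few control events these values cannot decide whether the numbers mark pairs. The labels state no pairing, so the main fit has no replicate term, and a fit with a replicate block is given below.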

Additional observations from a re-analysis of the deposited data

How the results depend on the processing

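Under each alternative, 0 loci were called in any fit, and adjusted p by edgeR or DESeq2 stayed at or above 0.0527 in each. No direction of a locus was called, and signs turned. With library totals the log2 fold changes were -0.25 for ITGB1, -0.060 for ITGA3, -0.43 for ITGA2 and -0.27 for ITGAV. For ITGA2 they were -0.14 with DESeq2 size factors in edgeR and -0.13 by the DESeq2 Wald test. Leaving out each library in turn gave -0.56 to 1.22 for ITGB1, -0.48 to 1.13 for ITGA3, -0.53 to 2.18 for ITGAV, 0.88 to 1.26 for ITGA6, -0.75 to 0.75 for ITGB4 and -0.13 to 8.38 for ITGA2. The highest of each came without control replicate 1, where ITGA2 had no control event left and its fold change is no bound. Without any 1 QKI-5 library the filter left ITGA6, ITGB4, ITGA2 and the windows of the loci untested. Called windows of the loci stayed at 0 in the other fits and numbered 0 to 1 when a library was left out.

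With the replicate number as a block, log2 fold changes were 0.54 for ITGB1, -0.35 for ITGB4, 0.55 for ITGA3, 0.70 for ITGA6, 0.78 for ITGAV and 0.40 for ITGA2, and 0 loci were called higher or lower. Over all rows the blocked fit called 0, against 213 higher and 32 lower without the block. Over all 29960 windows, calls higher and lower were 231 and 32 as reported, 32 and 56 by library totals and 85 and 35 with size factors. By DESeq2 they were 431 and 150. They were 159 and 6 of 174732 with no filter, 26 and 67 of 20702 with distinct positions and 649 and 44 of 24547 with 5 kb windows. Without control replicates 1, 2 and 3 they were 831 and 8 of 52140, 50 and 10 of 54520 and 235 and 26 of 54850. The fits without a QKI-5 library tested only 3 loci each and called 0 of them. Over all their rows, calls were 11 and 25 of 895 without QKI-5 replicate 1 and 73 and 95 of 954 without replicate 2. Without replicate 3 they were 54 and 47 of 940.

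Ranking stretches by distinct positions moved the ITGB1 share in QKI-5 replicates 2 and 3 to 2.39%, and that of ITGA2 to 4.80% from 2.42%. The wider stretches gave 5.93% for ITGB1, 11.5% for ITGB4 (5.65% as reported) and 6.33% for ITGA6 (3.75% as reported). Depth of the controls, 5 to 65 events per locus in all, limits every comparison with them.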

Other observations

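Beyond the 3′ boundary of ITGB1, QKI-5 events were again found on its strand, a pattern noticed after the values were seen. The last 1.5 kb inside the locus held 13 QKI-5 events, with 0 and 2 in its last 500 nt pieces, and the first 3 such pieces outside held 19, 17 and 12. The 10 kb after the locus held 116, 15 and 63 events in QKI-5 replicates 1, 2 and 3 and 2 events in controls, both in control replicate 2. The mean over these 10 kb was 1.49 ± 0.746 EPM per kb (SD, n = 3), against 0.563 ± 0.315 EPM per kb in the last 1.5 kb of the locus and 4.30 EPM per kb in the whole locus. One 500 nt piece, from 4.0 to 4.5 kb after the boundary, held 36, 4 and 22 of these events at 21, 3 and 8 positions, while the pieces on either side held 3 and 5 events over the QKI-5 libraries. The 10 kb after ITGA3 held 32 QKI-5 events and those after ITGAV 16, and ITGA6, ITGB4 and ITGA2 had 2 each.

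The share of each library's events that fell in the 6 loci together was 0.0549, 0.0604 and 0.0547% in QKI-5 replicates 1, 2 and 3, and 0.0769, 0.0699 and 0.0503% in control replicates 1, 2 and 3. ITGB1 alone supplied 43.7, 46.4 and 41.6% of them in QKI-5 libraries and between 40% and 55.2% in controls. The opposite strand of ITGA2 held 15, 4 and 3 events in QKI-5 replicates 1, 2 and 3 and none in controls. That of ITGA3 held 4, 0 and 10, so QKI-5 replicate 3 supplied most of them.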
